A study of Mus musculus with 6 samples.

Results

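The genes described here are 9 genes of megakaryocytes and platelets, Pf4, Ppbp, Itga2b, Gp9, Gp1ba, Gp1bb, Treml1, Vwf and Selp. They were taken by name from the 37991 rows of the gene count table, and all 9 were present and passed the filter on low counts. The table holds 6 libraries of bone endothelial cells (BECs), 3 from female and 3 from male c57/Bl6 mice (C57BL/6J in the methods), all 12 weeks old and with no transgene or treatment in the labels. By the labels the cells came fresh from the tibia and were sorted into lysis buffer for endomucin, a surface sialomucin of capillary and venous endothelium. For the isolation of BECs the methods instead describe tibiae and femurs and magnetic beads coated with endomucin antibody. The methods add that only the 3 samples of best RNA quality of each set went on to libraries. The comparison asks how the sexes differ in BECs, and p-values measure the spread between 3 libraries a sex.

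Megakaryocytes are the large polyploid cells of the bone marrow that shed platelets into the sinusoids. They sit against the sinusoidal endothelium, extend proplatelets through it and carry the platelet proteins as RNA before the platelets form. Platelets adhere when their GPIb-IX-V complex catches von Willebrand factor on an injured vessel wall, aggregate when the integrin αIIbβ3 binds fibrinogen, and release chemokines and adhesion proteins from α-granules. Of the 9 genes, Pf4, Ppbp, Itga2b, Gp9, Gp1ba, Gp1bb and Treml1 are largely restricted to the megakaryocyte lineage, and these 7 are called the platelet-restricted genes below. Vwf and Selp are also made by endothelial cells, which store both proteins in Weibel-Palade bodies.

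GATA1 and factors of the ETS family (FLI1 among them) are the textbook regulators of megakaryocyte genes. The stretch upstream of each gene was therefore searched for some forms of the letters they bind. Other forms were not counted. RefSeq promoter windows on GRCm38.p6 were found for 8 of the 9 genes. Vwf has no entry. The 250 bases before the start were read on both strands for AGATAA or TGATAA, written here as GATA letters, and for AGGAAG or CGGAAG, written here as ETS letters. Of the 7 platelet-restricted genes, 5 held ETS letters and 1 held GATA letters. Over all 32851 RefSeq windows of the same length, 39.2% held the ETS letters, 16.6% the GATA letters and 5.49% both. The last 150 bases before the start are printed 5′ to 3′ on the gene's strand. They are given for the 5 platelet-restricted genes with a match and for Selp, which also held one. Capitals mark the matched letters, which do not overlap each other.
Gp1ba (chr11:70638972-70639121, + strand): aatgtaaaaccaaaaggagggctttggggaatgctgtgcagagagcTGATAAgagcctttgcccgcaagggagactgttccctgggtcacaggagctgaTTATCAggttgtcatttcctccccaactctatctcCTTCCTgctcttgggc
Gp9 (chr6:87777920-87778069, + strand): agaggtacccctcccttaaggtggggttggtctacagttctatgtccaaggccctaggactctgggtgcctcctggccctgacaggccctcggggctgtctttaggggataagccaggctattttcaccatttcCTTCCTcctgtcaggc
Pf4 (chr5:90772285-90772434, + strand): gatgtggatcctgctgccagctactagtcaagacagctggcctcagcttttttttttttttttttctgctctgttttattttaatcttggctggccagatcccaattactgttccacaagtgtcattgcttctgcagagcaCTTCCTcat
Itga2b (chr11:102469884-102470033, - strand): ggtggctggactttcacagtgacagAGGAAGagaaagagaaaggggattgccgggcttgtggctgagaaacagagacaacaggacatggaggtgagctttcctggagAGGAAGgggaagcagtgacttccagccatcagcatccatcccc
Gp1bb (chr16:18622404-18622553, - strand): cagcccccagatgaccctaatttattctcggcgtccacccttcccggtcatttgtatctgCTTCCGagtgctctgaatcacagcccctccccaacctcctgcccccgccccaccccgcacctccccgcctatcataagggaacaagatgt
Selp (chr1:164115114-164115263, + strand): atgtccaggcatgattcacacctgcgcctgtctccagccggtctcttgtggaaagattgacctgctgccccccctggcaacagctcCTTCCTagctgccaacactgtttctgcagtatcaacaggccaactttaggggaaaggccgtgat
In Gp1ba, TGATAA began 104 bases before the start on the forward strand and lay again at 51 to 46 bases on the reverse strand, with AGGAAG on the reverse strand at 16 to 11 bases. Gp9 held AGGAAG at the same 16 to 11 bases, also on the reverse strand, and Pf4 at 9 to 4 bases. Itga2b held AGGAAG on the forward strand at 125 and at 43 bases, and Gp1bb held CGGAAG on the reverse strand at 90 bases. In Selp, AGGAAG lay on the reverse strand at 64 to 59 bases. The windows of Ppbp and Treml1 held neither set of letters. A match describes the sequence alone, and no binding was measured in these cells.

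Total counts lay between 47678806 and 58325745 a library, and levels are given as CPM, the usual depth-normalized unit, after TMM scaling of library size. A count of 3, taken as the lowest level a library can show, was between 0.0477 and 0.0639 CPM, so each of the 9 genes was well above it in every library, the lowest value being 25 counts of Treml1 in male replicate 2. These limits cover counting error only. The 7 platelet-restricted genes together held between 0.00368% and 0.0212% of a library's counts. Defining markers of endothelium (15 genes, Cdh5 and Emcn among them) held between 0.0205% and 0.0563%, and defining markers of neutrophils (12 genes) between 2.01% and 4.35%, so the libraries carried RNA of blood cells besides that of the labelled cell type.

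Between the sexes, edgeR called none of the 9 genes (quasi-likelihood test, Benjamini-Hochberg adjusted p below 0.05), and of all 19480 genes it called 0.0411%, or 0.0154% counting only genes lower in males. Without adjustment 1 of the 9 passed 0.05 (Selp, lower in males), where 9.79% of all genes did so and 4.76% with a lower level in males. DESeq2's Wald test called 2.02% of the 17561 genes to which it gave an adjusted p, and none of the 9 either. All 9 had a log2 fold change of males over females below 0, with a median of -0.71, against 0 for all genes tested. This direction rested in part on female replicate 1, the highest female library for each of the 9 genes. Without it the log2 fold changes lay between -0.73 for Selp and 0.10 for Gp9, and those of Gp9 and Gp1bb (0.07) were above 0. The sexes overlapped for all 9 genes, where 14.5% of all genes tested did not overlap, 7.29% with males lower. Each gene is described below with its spread within each sex. In bulk RNA, fewer cells of a type and less RNA per cell cannot be told apart.

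**Figure D1:**
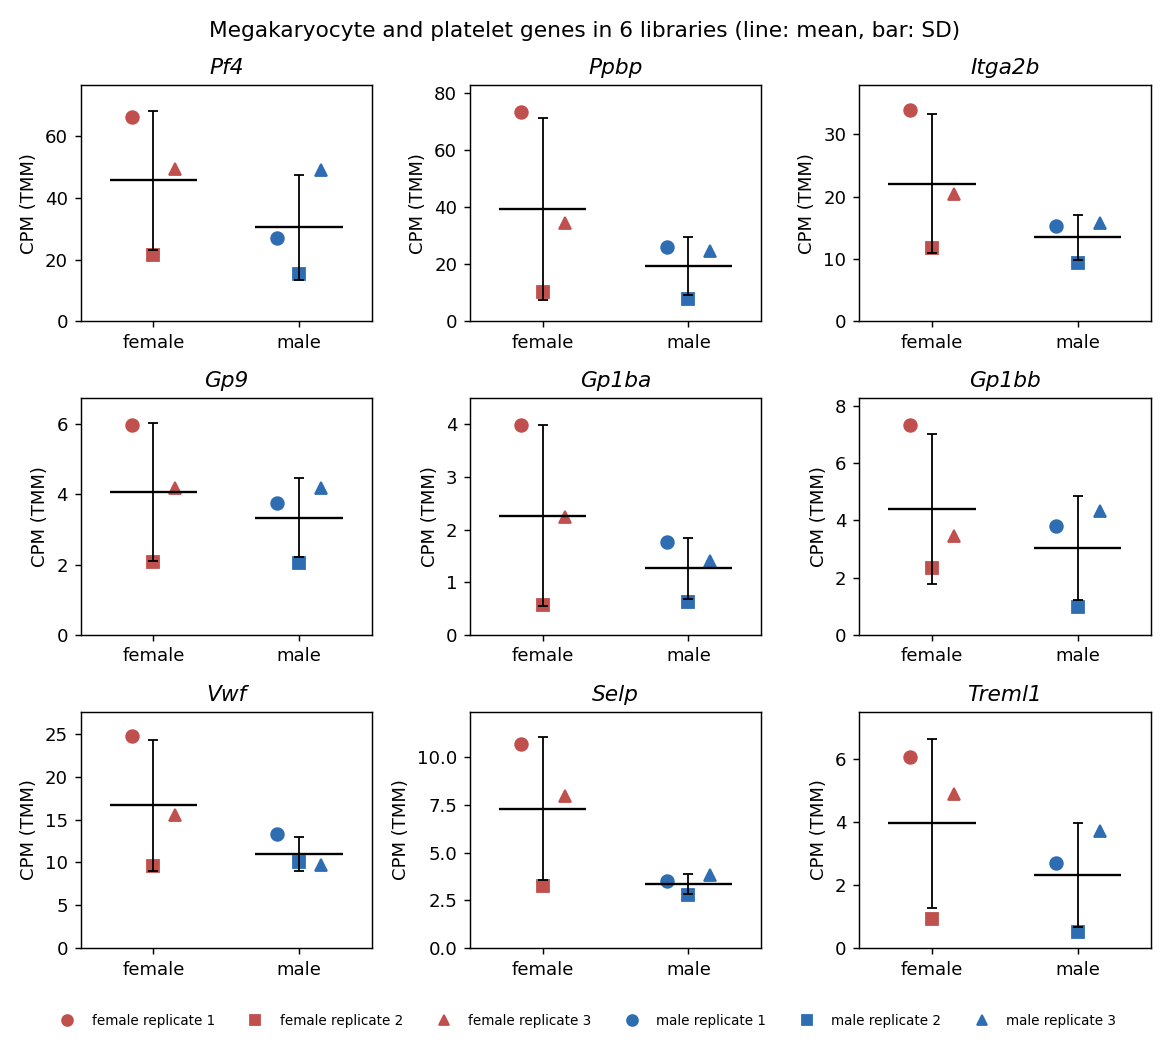
Level of each of the 9 genes (CPM after TMM scaling, linear axes from 0) in the 3 female and 3 male libraries, with the mean (line) and SD (bar). Female replicate 1 is the highest female library in every panel and female replicate 2 the lowest, and male replicate 2 is the lowest male library in all panels but that of Vwf.

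Pf4 and Ppbp encode the chemokines of the α-granule, platelet factor 4 and pro-platelet basic protein, and are among the most abundant transcripts of megakaryocytes. Pf4 lies on chromosome 5 of GRCm39 from 90918479 to 90922110, and Ppbp lies before it on the same strand from 90916371 to 90917930, 548 bases away. Pf4 had 66.1, 21.5 and 49.3 CPM in female replicates 1, 2 and 3 and 27.0, 15.5 and 48.9 CPM in male replicates 1, 2 and 3. Male replicate 3 thus matched female replicate 3, and both replicate 2 libraries were low. The means were 45.6 ± 22.5 CPM (SD, n = 3) in females and 30.5 ± 17.0 CPM (SD, n = 3) in males. Males over females, its log2 fold change came to -0.58 (SE 0.517, 95% interval -1.82 to 0.65, edgeR's adjusted p = 0.764). Ppbp had 73.4, 10.4 and 34.6 CPM in the females and 26.1, 7.79 and 24.6 CPM in the males. It had the widest spread of all within females, 7.04 times from the lowest to the highest library, against 3.35 times in males. Its log2 fold change of -1.02 had a standard error of 0.841 and a 95% interval from -3.19 to 1.15 (adjusted p = 0.757 from edgeR). Per length, by RPKM, Ppbp stood at between 0.917 and 2.10 times Pf4 within a library, and the order of the pair turned in 3 of the 6 libraries. Ppbp had a higher mean RPKM than 89.3% of the tested genes and Pf4 than 85.1%.

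Itga2b encodes the αIIb subunit (CD41) of the fibrinogen receptor, an early surface marker of the megakaryocyte lineage. It lies on chromosome 11 from 102341397 to 102360955. Its levels were 33.9, 11.8 and 20.5 CPM in the females and 15.3, 9.33 and 15.8 CPM in the males. Females 1 and 3 were above all males, and female 2 was below male replicates 1 and 3. The means were 22.1 ± 11.1 CPM (SD, n = 3) and 13.5 ± 3.60 CPM (SD, n = 3). The estimate of males over females on the log2 scale was -0.71 (SE 0.356, 95% interval -1.52 to 0.10, edgeR's adjusted p = 0.563), and -0.26 without female replicate 1. Itgb3, which encodes the β3 partner of the receptor and is also made by other cells, osteoclasts among them, had 54.8, 24.1 and 40.3 CPM in the females and 37.9, 28.9 and 32.8 CPM in the males. By RPKM, Itgb3 stood at 2.00 to 3.83 times Itga2b, lowest in female replicate 1, where Itga2b was highest, and highest in male replicate 2, where Itga2b was lowest.

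Gp1ba, Gp1bb and Gp9 encode subunits of the GPIb-IX-V complex. GPIbα carries the site that binds von Willebrand factor, GPIbβ is linked to it by disulphide bonds, and GPIX is needed for the complex to reach the surface. Gp1ba, on chromosome 11 from 70529948 to 70532862, had 3.99, 0.567 and 2.24 CPM in the females and 1.76, 0.629 and 1.41 CPM in the males. Only 30 and 31 counts stood behind the values of female replicate 2 and male replicate 2. The highest library was 7.03 times the lowest, and both of them were female. Gp1bb, on chromosome 16 from 18439067 to 18441153, had 7.34, 2.34 and 3.47 CPM in the females and 3.81, 0.974 and 4.32 CPM in the males. Here male replicate 3 stood above female replicates 2 and 3, and male replicate 2 was the lowest of the 6. The exons of Gp1bb overlap those of Septin5 on its own strand, so reads of both genes cannot be told apart there. Septin5 had 24.9, 28.6 and 27.0 CPM in the females and 44.7, 46.5 and 36.7 CPM in the males. The part of shared reads in the values of Gp1bb and in its sex difference was not tested. Gp9, on chromosome 6 from 87755047 to 87756750, had 5.99, 2.06 and 4.17 CPM in the females and 3.76, 2.05 and 4.19 CPM in the males. Replicates 2 and 3 of Gp9 were close to each other between the sexes, and female replicate 1 stood alone at the top.

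For the 3 subunits, the log2 fold changes of males over females were -0.84 for Gp1ba (95% interval -2.20 to 0.53, adjusted p = 0.703 from edgeR), -0.53 for Gp1bb (95% interval -1.78 to 0.71, adjusted p = 0.797 from edgeR) and -0.29 for Gp9 (95% interval -1.18 to 0.60, adjusted p = 0.854 from edgeR). Of the variance of the log2 level of Gp9, 4.31% lay between the sexes. Per length, the subunits kept one order in every library, Gp9 above Gp1bb above Gp1ba. By RPKM, Gp1bb stood at 0.202 to 0.521 times Gp9, and Gp1ba at 0.0899 to 0.218 times Gp9. Gp5, the gene of the further subunit GPV, had 8.58, 1.82 and 4.39 CPM in the females and 3.42, 0.487 and 2.55 CPM in the males, and stood at 0.0945 to 0.570 times Gp9 by RPKM. These ratios rest on exon lengths of GENCODE M39, which may differ from those the reads were counted on. The ratio with Gp1bb, and its place in the order, also rest on counts from exons shared with Septin5.

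Treml1 encodes TLT-1, a receptor of the α-granule membrane that reaches the surface of activated platelets. It lies on chromosome 17 from 48666918 to 48674208. It had 6.07, 0.927 and 4.88 CPM in the females and 2.71, 0.507 and 3.73 CPM in the males. Its highest library was 12.0 times its lowest, the widest range of the 9 genes. Both replicate 2 libraries were under 1 CPM, while male replicates 1 and 3 lay among the females. The log2 fold change was -0.77 with a standard error of 0.762 (95% interval -2.51 to 0.97, adjusted p = 0.788 from edgeR).

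Vwf encodes von Willebrand factor, the multimeric ligand of GPIbα, which endothelial cells and megakaryocytes both make. It lies on chromosome 6 from 125523737 to 125663642. It had 24.8, 9.64 and 15.6 CPM in the females and 13.3, 10.1 and 9.67 CPM in the males. The males lay close together, 1.38 times apart at most, and 2 females stood above all of them. Female replicate 2 was the lowest of the 6 libraries, though close to the males. The sexes differed by a log2 fold change of -0.60 (95% interval -1.26 to 0.06, edgeR's adjusted p = 0.553), and by -0.18 without female replicate 1. Selp encodes P-selectin, which captures leukocytes on activated endothelium and platelets. It lies on chromosome 1 from 163942833 to 163977595. It had 10.7, 3.27 and 7.96 CPM in the females and 3.53, 2.80 and 3.81 CPM in the males. Females 1 and 3 were above every male, and female 2 lay inside the male range. The means were 7.32 ± 3.76 CPM (SD, n = 3) in females and 3.38 ± 0.523 CPM (SD, n = 3) in males. The sex difference of Selp was -1.11 on the log2 scale (SE 0.376, with 0.357 as edgeR's adjusted p). With all 6 libraries its 95% interval, not adjusted over genes, lay on one side of 0 (-1.95 to -0.28), and those of the other 8 genes did not. Between the sexes lay 45.1% of the variance of its log2 level, against 4.31% to 27.8% for the other 8 genes. This share was not computed over all genes, so no baseline stands beside it. Exons of the antisense RNA Gm16548 overlap those of Selp, and it had between 15 and 71 counts a library.

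**Figure D2:**
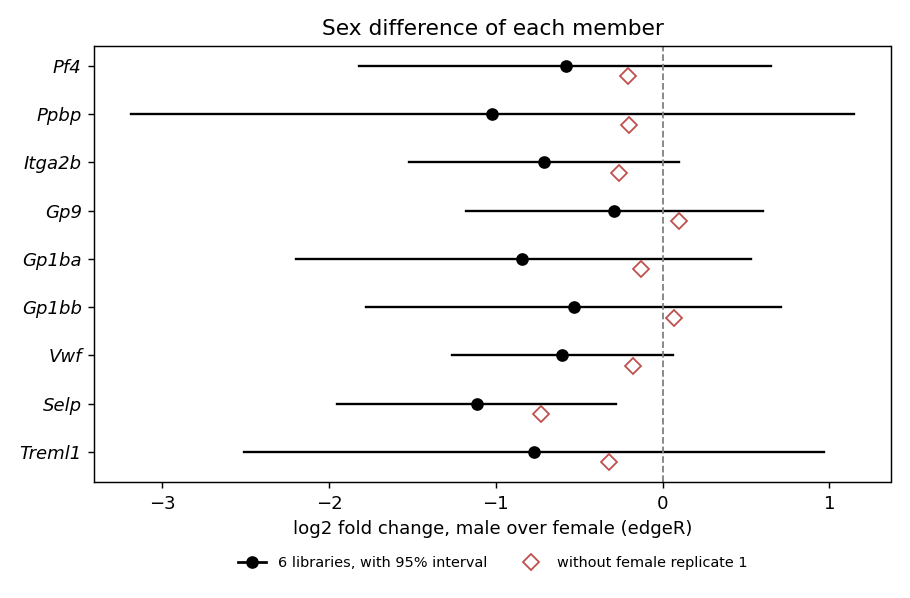
Log2 fold change of males over females for each of the 9 genes from edgeR's quasi-likelihood test, with the 95% interval not adjusted over genes (black), and the same estimate without female replicate 1 (open diamonds). All 9 black points lie below 0 and only the interval of Selp ends below 0 (-0.28); without female replicate 1 the estimates of Gp9 (0.10) and Gp1bb (0.07) lie above 0.

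Within a sex, the genes varied together. Female replicate 2 was the lowest female library for all 9 genes, and male replicate 2 the lowest male library for 8 of them, Vwf being the exception. Both held at once for 8 of the 9 genes, and for 9.5% of all genes tested, a comparison chosen after the values were seen. The highest male library was replicate 3 for 6 genes and replicate 1 for 3. The labels do not say that libraries of one number in both sexes belong together. From the lowest to the highest female library the range was 1.57 on the log2 scale for the median of the 9 genes, with a pseudocount of 0.5, against 0.38 for the median of the 9982 tested genes of like level (mean between 1.77 and 38.1 CPM). In males these medians were 1.00 and 0.41. The range of the median gene of the 9 was wider than that of 99.3% of the genes of like level in females and of 93.1% in males. Female replicate 1 stood above female replicate 2 by 7.04 times for Ppbp, 7.03 times for Gp1ba and 6.55 times for Treml1. For Itga2b, Gp9 and Vwf it did so by 2.87, 2.91 and 2.57 times. In males, Treml1 of replicate 3 stood at 7.35 times replicate 2, and Vwf at 0.957 times.

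Summed over the 7 platelet-restricted genes, the level was 197, 49.7 and 119 CPM in female replicates 1, 2 and 3 and 80.4, 36.7 and 103 CPM in male replicates 1, 2 and 3. The mean of the males was 0.602 times that of the females, with the sexes overlapping. That ratio was 0.869 without female replicate 1, 0.752 without male replicate 2 and 0.464 without female replicate 2. Sums for other cell types are given beside it. The 15 endothelial markers, all above 3 counts in every library, summed to between 364 and 537 CPM in females and between 204 and 329 CPM in males, with replicate 2 lowest in both sexes. The 10 stromal markers, such as Cxcl12 and Pdgfrb, lay between 1524 and 3129 CPM in females and between 1278 and 2432 CPM in males, again with replicate 2 lowest in both. The 12 neutrophil markers ran the other way between the sexes, from 18653 to 22795 CPM in females and from 31691 to 43479 CPM in males. The 11 erythroid markers present in the table lay between 12252 and 17568 CPM in females and between 18550.2 and 27254 CPM in males, and the 12 macrophage markers between 6215 and 6453 CPM in females and between 3979 and 5362 CPM in males. Progenitor markers (8 genes) lay between 182 and 254 CPM in females and between 174 and 219 CPM in males. B cell markers (9 genes present) lay between 4742 and 5745 CPM in females and between 4642 and 5823 CPM in males. Mast cell and basophil markers (8 genes) lay between 161 and 183 CPM in females and between 193 and 263 CPM in males. No gene of these 8 lists was under 3 counts in any library. The part of these cell types in the spread of the platelet genes was not tested.

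**Figure D3:**
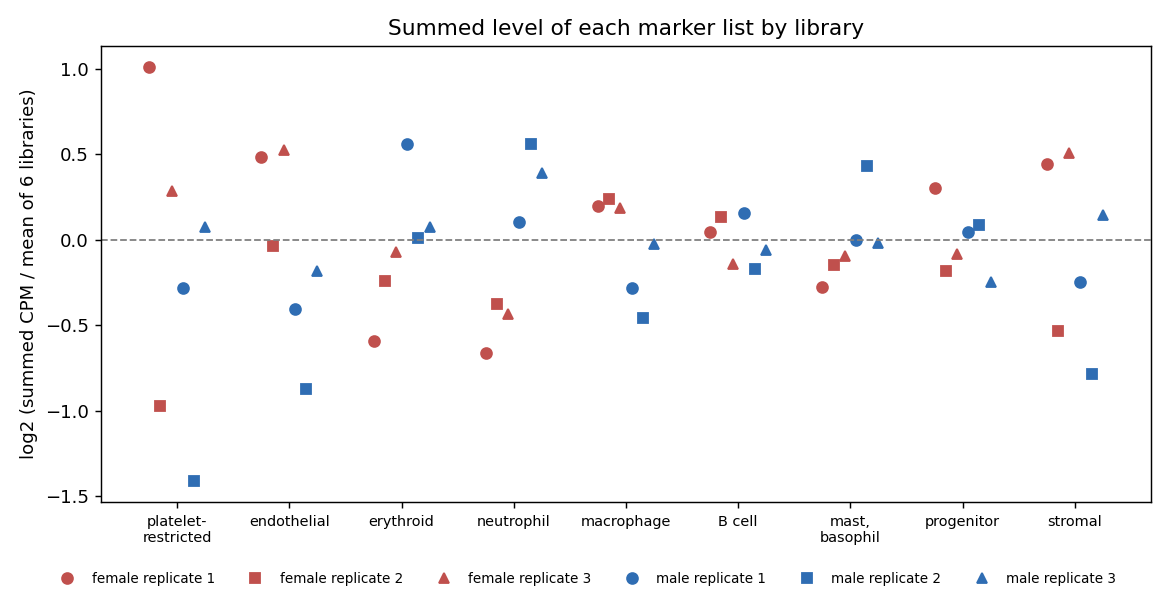
Summed CPM of each marker list in each library, as log2 of its ratio to the mean of the 6 libraries, with colours for sex and symbols for replicate. The platelet-restricted genes have the widest spread, with female replicate 1 at the top (197 CPM) and male replicate 2 at the bottom (36.7 CPM), while neutrophil markers are higher in all males than in all females.

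Since Vwf and Selp are shared with vessels, each was set against both marker sums within a library, which removes library size. On the log2 scale, Vwf relative to the summed platelet-restricted genes was -2.99, -2.36 and -2.93 in the females and -2.59, -1.86 and -3.41 in the males. The ratio was highest in both replicate 2 libraries, where the platelet-restricted genes were lowest. Relative to the summed endothelial markers, Vwf was at -4.40, -5.24 and -5.11 in the females and -4.41, -4.34 and -5.09 in the males. The males exceeded the females by 0.14 in the first ratio (exact permutation test, two-sided, p = 0.8) and by 0.30 in the second (exact permutation test, two-sided, p = 0.3), where 3 against 3 libraries cannot give a p below 0.1. The first difference turned to -0.24 without male replicate 2. Over the 6 libraries, the ratio of Vwf to platelet genes spanned 1.55 and its ratio to endothelial markers 0.90.

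For Selp, the log2 ratio to the platelet-restricted genes was -4.20, -3.92 and -3.90 in the females and -4.51, -3.71 and -4.75 in the males. The males were lower by 0.32 on average, a difference of -0.32 (exact permutation test, two-sided, p = 0.4). Its log2 ratio to the endothelial markers was -5.61, -6.80 and -6.08 in the females and -6.32, -6.19 and -6.43 in the males, a difference of -0.15 (exact permutation test, two-sided, p = 0.7). Females 1 and 2 were the extremes of this ratio, and the males lay close together between them. Without female replicate 1 the difference turned to 0.12. Neither ratio separated the sexes for either gene.

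**Figure D4:**
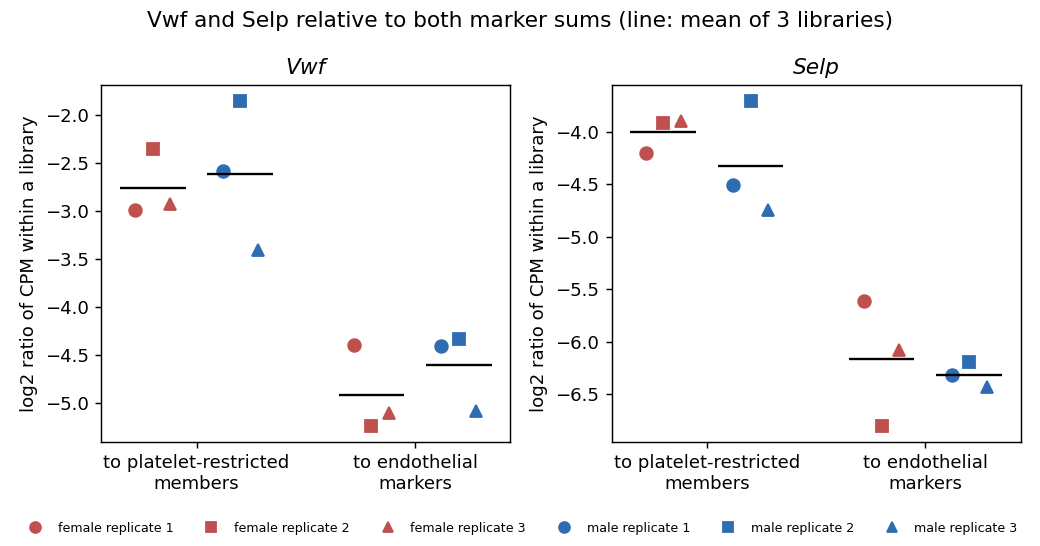
Log2 ratio of Vwf (left) and Selp (right) to the summed CPM of the 7 platelet-restricted genes and of the 15 endothelial markers within each library, with the mean of 3 libraries as a line. The sexes overlap in all 4 ratios.

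Other cargo and factors of the Weibel-Palade body were listed to describe the vessel side of Vwf and Selp. Of 6 such genes, 4 passed the filter on low counts and none passed the adjusted threshold in edgeR's quasi-likelihood test or in DESeq2's Wald test, with 1 (Rab27a) at an unadjusted p under 0.05 in edgeR, as were 9.79% of all genes. Angpt2, an antagonist of the Tie2 receptor that is released from these bodies, had 3.29, 1.57 and 2.45 CPM in the females and 1.54, 1.56 and 1.29 CPM in the males. Its groups did not overlap, though by a narrow margin, and those of 14.5% of all genes tested did not either. The log2 fold change of Angpt2 was -0.74 (adjusted p = 0.512 from edgeR). Igfbp7 had 82.5, 62.1 and 103 CPM in the females and 58.6, 36.1 and 76.8 CPM in the males, with replicate 2 lowest in both. Rab27a, a small GTPase of granule transport that blood cells also use, was at 65.5 ± 5.23 CPM (SD, n = 3) in females and 88.8 ± 5.75 CPM (SD, n = 3) in males (adjusted p = 0.230 from edgeR). The sexes did not overlap for Rab27a either, with all males higher. Cd63, a membrane protein of many granules and lysosomes, was at 189.8 ± 24.1 CPM (SD, n = 3) and 187 ± 51.2 CPM (SD, n = 3). Edn1, the gene of endothelin, and Plat, that of tissue plasminogen activator, were under the filter, with at most 0.319 and 0.461 CPM.

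A wider list of 39 genes of megakaryocytes and platelets covered transcription factors, receptors, cytoskeleton and signalling, granule cargo and eicosanoid enzymes. Of these, 38 were in the table and 37 passed the filter. EdgeR called none of them, with 0.0411% of all genes called. DESeq2's Wald test called 2 (Nfe2 and Nbeal2, both higher in males), with 2.02% of its 17561 genes called. At an unadjusted p under 0.05 in edgeR, 9 were counted, 6 lower and 3 higher in males, that is 9 of 37 where 9.79% of all genes were. The median log2 fold change was -0.22, against 0 for all genes tested, and 28 of the 37 (75.7%) were below 0, as were 50.2% of all genes tested. This median was -0.09 without female replicate 1, -0.14 without male replicate 2 and -0.38 without male replicate 1. For 5 of the 37 the sexes did not overlap, a share close to the 14.5% of all genes tested.

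Among transcription factors, 7 of 9 log2 fold changes were below 0 with a median of -0.08. Nfe2, whose protein drives the late steps of platelet formation and is also made by erythroid and myeloid cells, had 81.4, 80.8 and 82.0 CPM in the females and 111, 136 and 121 CPM in the males. The females were nearly equal and all males stood above them. Males exceeded females by 0.59 on the log2 scale (SE 0.114, edgeR's adjusted p = 0.0974). Fli1, of the ETS family, was at 97.8 ± 10.3 CPM (SD, n = 3) in females and 95.3 ± 9.97 CPM (SD, n = 3) in males. Zfpm1, the gene of the GATA1 partner FOG1, was at 51.2 ± 6.85 CPM (SD, n = 3) and 53.3 ± 19.5 CPM (SD, n = 3), with male replicate 1 at 75.3 CPM. Replicate 2 was lowest in both sexes for 2 of the 9.

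Of 12 receptor genes, 11 had a log2 fold change below 0, with a median of -0.50 and a range from -1.38 to 0.04, and replicate 2 was lowest in both sexes for 7. The group holds receptors for collagen (Gp6), thrombin (F2rl2, F2rl3), thromboxane (Tbxa2r) and ADP (P2ry1, P2ry12). Of its 3 most abundant genes, Itgb3 is given above. Clec1b, the gene of the podoplanin receptor CLEC-2, had 20.6, 18.3 and 18.7 CPM in the females and 13.4, 10.6 and 21.3 CPM in the males. P2ry12, which brain microglia also express, was at 9.88 ± 0.406 CPM (SD, n = 3) in females and 9.19 ± 0.980 CPM (SD, n = 3) in males (difference -0.11 on the log2 scale, edgeR's adjusted p = 0.878).

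Among the 7 tested genes of the cytoskeleton and signalling, the most abundant were Plek, Fermt3 and Rasgrp2, which other blood cells express as well. Their log2 fold changes were 0.00, -0.07 and 0.01, with means of 268, 193 and 159 CPM over the 6 libraries. The group ranged from -1.06 to 0.40, and 4 of the 7 were below 0. For granule cargo and biogenesis, 3 of 6 tested genes were below 0 with a median of 0.05. Srgn, the core protein of granule proteoglycans in many blood cells, had 303, 327 and 314 CPM in the females and 311, 399 and 420.5 CPM in the males. Nbeal2, which α-granule formation requires and which neutrophils also express, had 73.7, 61.7 and 58.2 CPM in the females and 96.0, 112 and 77.3 CPM in the males (log2 fold change 0.56, adjusted p = 0.259 from edgeR). F13a1, the coagulation factor XIII A chain of platelets and macrophages, was at 49.5 ± 19.6 CPM (SD, n = 3) and 46.8 ± 2.07 CPM (SD, n = 3). Mmrn1, an α-granule protein, had no more than 0.0213 CPM in any library, under the level of 3 counts.

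All 3 eicosanoid enzymes had a log2 fold change below 0. Tbxas1, thromboxane synthase, had 76.0, 76.3 and 68.0 CPM in the females and 52.7, 39.0 and 58.5 CPM in the males, without overlap (log2 fold change -0.55, adjusted p = 0.256 from edgeR). Ptgs1, cyclooxygenase-1, had 53.5, 48.9 and 57.9 CPM in the females and 40.8, 39.1 and 41.3 CPM in the males, also without overlap (log2 fold change -0.40, adjusted p = 0.259 from edgeR). Macrophages make both enzymes too, and the macrophage marker sums of the males all lay under those of the females, as given above; the part of macrophages in these values was not tested. Alox12, the platelet 12-lipoxygenase, had 19.3, 6.07 and 13.5 CPM in the females and 7.59, 6.11 and 8.66 CPM in the males, and its log2 fold change was -0.80 (adjusted p = 0.493 from edgeR).

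**Figure D5:**
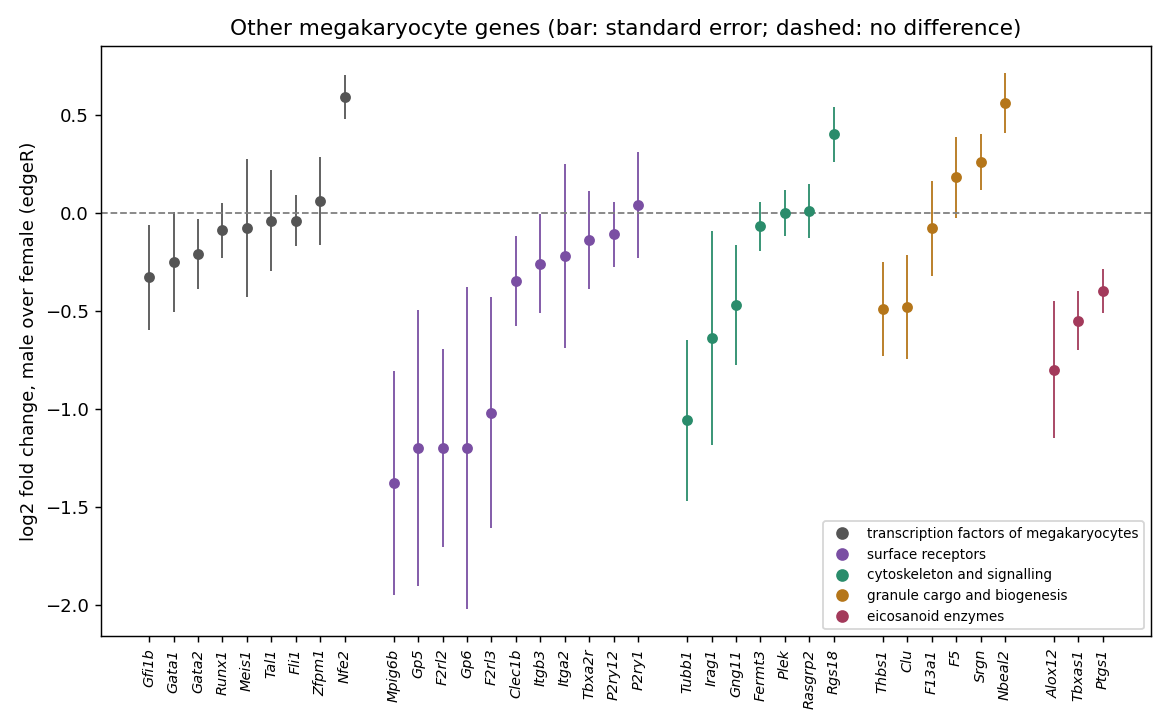
Log2 fold change of males over females with its standard error (bar) for 36 of the 37 tested genes of the wider list, coloured by role. Receptors reach from -1.38 to 0.04, while Nfe2 (0.59) and Nbeal2 (0.56) lie highest.

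The genes whose profile over the 6 libraries lay nearest to that of the platelet-restricted genes were found by the root-mean-square difference of log2 levels, each gene centred on its own mean. Among 14915 genes with a mean of at least 1 CPM, the median difference was 0.761. The nearest 5 were Inhbb (0.129), Pdgfrb (0.156), Irag1 (0.197), Cpxm1 (0.202) and Tmem47 (0.217). Irag1 is on the wider megakaryocyte list and Pdgfrb on that of stromal markers. Pdgfrb, the receptor of pericytes and stromal cells for platelet-derived growth factor, had 45.1, 13.4 and 31.7 CPM in the females and 27.3, 12.0 and 23.2 CPM in the males. Of the wider list, Tubb1 (0.244, rank 14) and Mpig6b (0.284, rank 30) came next, then Alox12 (0.302, rank 47). Other genes of that list lay farther off than the median gene, among them Srgn (0.839), F13a1 (0.912), Nfe2 (0.919) and Nbeal2 (0.920). Tubb1 encodes the β1-tubulin of platelets and had 14.6, 4.43 and 9.58 CPM in the females and 5.77, 2.76 and 5.21 CPM in the males. The same measure of each member to the mean of the other platelet-restricted genes was lowest for Gp1ba (0.221) and Pf4 (0.246) and highest for Vwf (0.441). Selp, at 0.360, lay within the range of the 7 genes (0.221 to 0.382).

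Vwf and Selp had other nearest genes. Nearest to Vwf were Pls1 (0.0968), Csgalnact1 (0.127), Mfap3l (0.131), Ccdc80 (0.137) and C4a (0.149), with a median of 0.508 over all genes. Those nearest to Selp were Alox12 (0.129), Esam (0.152), Gnao1 (0.162), Sned1 (0.169) and Bmp6 (0.170), with a median of 0.682. Alox12 is on the platelet list and Esam, an adhesion molecule of endothelial junctions that platelets also carry, on the endothelial list. Likeness of profile over 6 libraries is given as a description.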

How the data were processed

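RNA of BECs from 3 female and 3 male mice was measured. The deposited values are whole-number read counts per Ensembl gene and library, not normalized and not pooled. The submitters' processing notes name TopHat2 2.0.11, featureCounts, mm9 and NCBIM37, whereas the paper names STAR, featureCounts and GRCm39. The labels and the paper also differ on bones used, cell isolation, read length, library kit and instrument. The gene annotation release and the use of strand are not given in the sources used here. Identifiers were matched to GENCODE M39 on GRCm39 (31073 of 37991), whose symbols, positions and exon lengths are printed. Positions of the counted exons may therefore differ.

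The fit used edgeR 4.0.16 under R 4.3.3 (TMM, default filter by sex, robust quasi-likelihood test of males over females, Benjamini-Hochberg over all 19480 genes tested). A standard error (SE) is the size of the estimate over the root of its F statistic. RPKM is TMM-scaled CPM divided by exon length in kilobases. The fits were tested on simulated data. No 2 libraries agreed within sampling noise (chi-square per degree of freedom at least 31.5 over gene counts). Alternatives were DESeq2 1.42.0, other scalings and filters, a replicate block and each library left out.

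The genes, lists and tests were chosen with earlier results of these data known. Named were the 9 genes, the 3 most abundant of each role of the wider list with any called, all Weibel-Palade genes and the 5 nearest profiles. Gp5, Gp6, Tubb1, Mpig6b, Irag1, Mmrn1 and Septin5 were named after their values were seen. A gene of the wider list enters its counts and medians but is not reported here by name.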

Additional observations from a re-analysis of the deposited data

How the results depend on the processing

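Of 126 alternative fits of the 9 genes, 121 kept the direction and the side of the adjusted threshold. DESeq2's Wald test with the replicate block called 4.06% of the genes to which it gave an adjusted p. Among them were Ppbp (-0.80, adjusted p = 0.00304), Itga2b (-0.62, adjusted p = 0.0375) and Selp (-0.97, adjusted p = 0.0268). Over the other alternatives that kept all 6 libraries, the adjusted p of these genes was at least 0.0931, 0.0969 and 0.0715. Without female replicate 1 the log2 fold changes of Gp9 (0.10) and Gp1bb (0.07) turned above 0. With each library left out in turn, log2 fold changes lay between -1.11 and -0.21 for Pf4, -1.47 and -0.20 for Ppbp, -1.02 and -0.26 for Itga2b, -0.61 and 0.10 for Gp9, -1.30 and -0.13 for Gp1ba, -0.88 and 0.07 for Gp1bb, -0.87 and -0.18 for Vwf, -1.47 and -0.73 for Selp and -1.29 and -0.30 for Treml1. The difference of males minus females in the log2 ratio of Vwf to the platelet-restricted genes lay between -0.24 and 0.53, and that in the log2 ratio of Selp to endothelial markers between -0.47 and 0.12. For Vwf to endothelial markers it lay between 0.14 (without female replicate 2) and 0.56 (without female replicate 1), and for Selp to the platelet-restricted genes between -0.62 (without male replicate 2) and -0.10 (without male replicate 3).

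Genes called over the whole table numbered 8 in the main fit (5 higher and 3 lower in males), 14 with total counts alone (10 and 4), 98 with no filter on low counts (75 and 23), 354 with DESeq2's Wald test (225 and 129) and 715 with DESeq2 and the replicate block (354 and 361). Without 1 library they lay between 5 and 96, the lowest without female replicate 2 and the highest without male replicate 3. On the wider list the numbers called were 2 with DESeq2's Wald test, 4 with the replicate block in edgeR (Nfe2 and Nbeal2 higher, Gp5 and Tubb1 lower in males) and 6 with DESeq2 and the block. The cause of these shifts was not tested.

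With the replicate number as a block, edgeR called 428 genes (2.2%, 221 higher and 207 lower in males) and none of the 9. Replicate numbers are those after Rep in the sample titles, whose leading sample codes differ from them for 4 of the 6 libraries. Same-numbered libraries deviated from their sex means with correlations of 0.194, 0.0402 and 0.298 across genes, and 5 of 6 libraries correlated best with their own number, a hint from the data and not from the design.

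Among the 9 genes the lowest counts in a library were 25 for Treml1 and 30 for Gp1ba. Of the wider list, Gp5 had 24 counts in male replicate 2, Mpig6b 14 and Gp6 1. Mpig6b had the lowest log2 fold change of the receptors (-1.38). Such low counts limit the precision of levels and ratios there, and of the log2 fold changes of these genes.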
